A study of Ovis aries with 36 samples.

Results

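The 9 genes followed here are the myogenic regulatory factors MYOD1, MYF5, MYF6 and MYOG, their partners MEF2A and MEF2C, the progenitor cell factors PAX7 and PAX3, and myostatin (MSTN). They were chosen by name: each locus of the count files that carries one of these symbols was taken, and loci of the same name were summed. In each of the 3 tissues 8 of the 9 were found under their own symbol, and MSTN was taken from the loci named GDF-8, a synonym that RefSeq gives for sheep MSTN (assembly ARS-UI_Ramb_v3.0). The members held 11 of 34958 loci in the muscle files, 9 of 34246 in the subcutaneous files and 10 of 35060 in the perirenal files.

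Fetuses came from Polypay ewes bred to 1 sire and fed from mid gestation until late gestation on alfalfa haylage offered freely (HY, Hay in the labels), limit-fed corn (CN) or limit-fed dried corn distillers grains (DG). RNA of 26 fetuses from 15 dams was pooled by diet and sex, so that longissimus dorsi muscle, subcutaneous adipose tissue from near the shoulder blade and perirenal adipose tissue each have 4 pools per diet: female pools F1 and F2 and male pools M1 and M2. Diet is the only treatment in the labels, and no group is an untreated control. Each pool can mix RNA of several fetuses and some pools of a diet share a dam, so p-values measure the spread between pools and not between independent animals.

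In the embryo PAX3 and PAX7 mark muscle progenitor cells, and PAX7 is kept in satellite cells, the stem cells of later muscle. MYF5 and MYOD1 commit progenitors to the myoblast fate, MYOG drives their differentiation into fibres, and MYF6 (also called MRF4) acts in differentiating and mature fibres. MEF2 proteins bind with these factors at muscle genes but are made in many other cell types too, and myostatin is a secreted member of the TGF-beta family that restrains muscle growth.

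Total counts per pool ran from 13749762 to 29625146 in muscle, from 6705766 to 20272024 in subcutaneous tissue and from 7802700 to 15913813 in perirenal tissue. In muscle the CN pools were the shallowest, at 13749762 to 19387181 counts against 20370147 to 29625146 in DG and 19071024 to 22831074 in HY. Levels are given as raw counts and as CPM (the share of a library's counts in the usual CPM unit, with the total scaled within a tissue by the TMM method), with no correction for gene length, so they compare pools and not genes. The 15 skeletal muscle marker genes (ACTA1, CKM, troponins and others) summed to 99240 to 146200 CPM in muscle, with overlapping ranges in the 3 diets. Adipocyte markers (8 genes) summed to 78.1 to 165 CPM in muscle, mostly lipoprotein lipase (LPL, 70.8 to 118 CPM), with ADIPOQ at 2.80 to 34.6 CPM and LEP at 0 in every pool, against 2139 to 11240 CPM in subcutaneous and 6999 to 17810 CPM in perirenal tissue. Endothelial markers (4 genes) in muscle summed to 479 to 569.9 CPM in the CN pools, 551 to 739 in DG and 589.6 to 715 in HY, so that all HY pools lay above all CN pools while DG overlapped CN. In perirenal tissue the skeletal muscle markers summed to 58.3 to 783 CPM. In subcutaneous tissue they ran from 835 to 139300 CPM, so that some of these pools reached the range of muscle itself.

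In muscle, MYOD1 was the member that differed between diets. The CN pools F1, F2, M1 and M2 held 13, 13, 8 and 28 MYOD1 counts, the DG pools held 91, 59, 74 and 107, and the HY pools held 67, 88, 68 and 60. Every DG and HY pool lay above every CN pool, and the DG and HY pools overlapped. As CPM this was 0.974 ± 0.621 (SD, n = 4) in CN, 3.46 ± 0.55 in DG and 3.38 ± 0.255 in HY, 3.55 times as much in DG and 3.47 times as much in HY as in CN. The log2 fold change was 1.84 (SE 0.32, FDR = 0.0183, edgeR quasi-likelihood test) for DG over CN and 1.80 (SE 0.321, FDR = 0.0154) for HY over CN. FDR is the p-value adjusted by the Benjamini-Hochberg method over all 18565 features tested in muscle, and a gene was called at an FDR of 0.05 or below. The exact two-sided permutation test of 4 against 4 pools gave p = 0.0286 in both comparisons, the smallest p that 70 arrangements allow.

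MYOD1 was thus 1 of 8 members tested that was called in CN vs. DG, where 0.975% of all features were called, and 1 of 8 in CN vs. HY, where 2.68% were called. Of the 181 features called in CN vs. DG, 175 were higher in DG, and of the 498 called in CN vs. HY, 453 were higher in HY. The counts behind MYOD1 are low, and they cover a locus of only 596 bases on chr15:34370527-34371122 (Oar_v3.1), while RefSeq's MYOD1 spans 2795 bases in another assembly. When all muscle libraries were thinned at random to the smallest total, the change was 2.02 for DG (FDR = 0.016) and 1.94 for HY (FDR = 0.0155). The random draw was not repeated, and the part of depth in the MYOD1 difference was not otherwise tested. The call in CN vs. DG was lost without CN pool M1 (FDR = 0.0671), without DG pool M1 (FDR = 0.0627) and with only the 8 pools of these diets in the fit (FDR = 0.0906). In CN vs. HY it was lost without CN pool M1 (FDR = 0.0558), without HY pool F1 (FDR = 0.0635) and without HY pool F2 (FDR = 0.0523). The change stayed between 1.63 and 2.36 on the log2 scale in all of these fits.

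**Figure D1:**
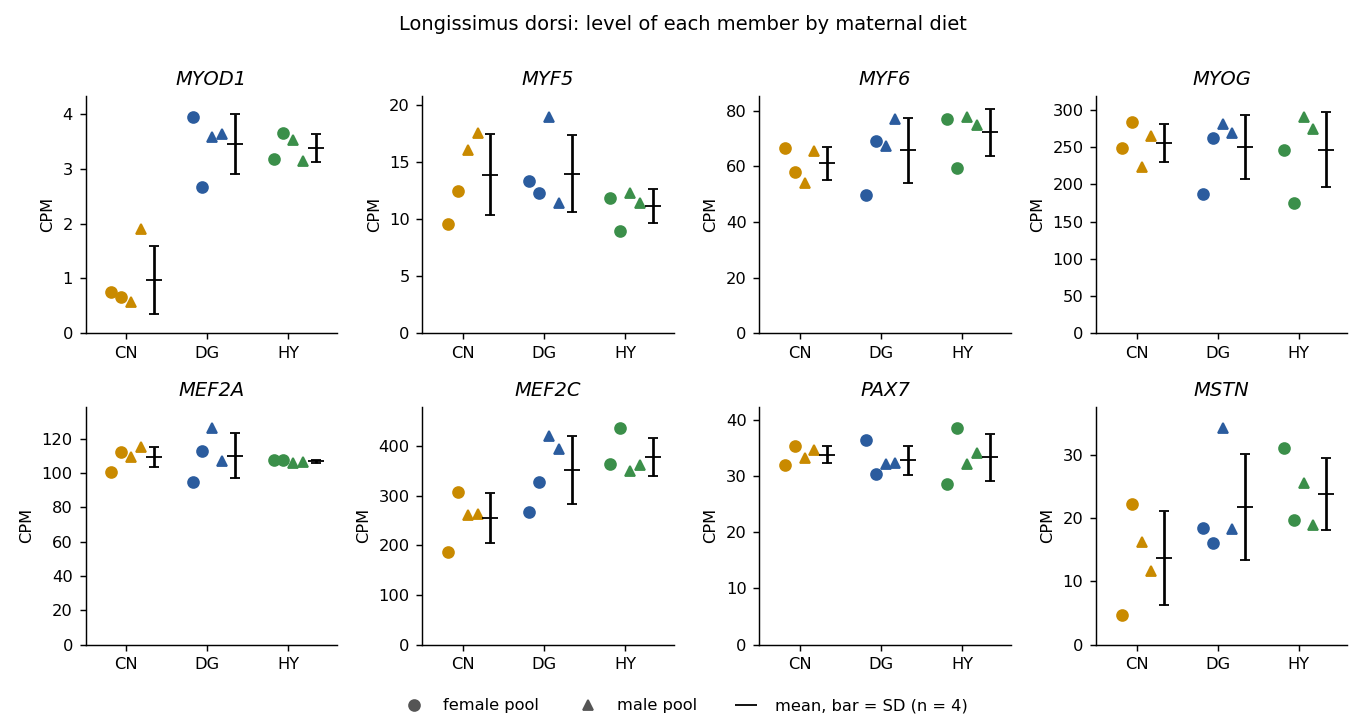
Level of 8 members in longissimus dorsi, in CPM on linear axes from 0, by maternal diet. Circles are female and triangles male pools, and the black dash and bar are the mean and SD of 4 pools. MYOD1 pools of CN (0.573 to 1.90 CPM) sit below all DG and HY pools (2.67 to 3.94 CPM), while MYOG, MEF2A and PAX7 pools of the 3 diets overlap.

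The other 3 regulatory factors did not pass the test in muscle. MYF5 had 165, 243, 224 and 259 counts in the CN pools, 308, 273, 392 and 336 in DG, and 250, 216, 237 and 219 in HY. On the CPM scale its diets overlapped, and HY stood at a log2 fold change of -0.32 against CN (SE 0.206, FDR = 0.408). MYF6 lay between 54.1 and 66.5 CPM in CN, 49.5 and 76.8 in DG and 59.5 and 77.6 in HY, with a log2 fold change of 0.10 (SE 0.137, FDR = 0.742) for DG and 0.24 (SE 0.137, FDR = 0.343) for HY over CN. MYOG, with 3124 to 7920 counts per pool, had a mean of 255 CPM in the CN pools, 249.8 in the DG pools and 247 in the HY pools.

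The MYOG pools of CN lay between 224 and 284 CPM, those of DG between 187 and 281 and those of HY between 176 and 290, so the diets overlapped. For MYOG the log2 fold change against CN was -0.03 in DG and -0.05 in HY (SE 0.165 in both), for PAX7 it was -0.04 and -0.02 (SE 0.109), and for MEF2A it was 0.01 and -0.03 (SE 0.097). All 6 of these changes were smaller than their standard errors. PAX7, the satellite cell factor, had 463 to 950 counts per pool and stayed within 28.5 to 38.5 CPM over all 12 pools. MEF2A ranged from 94.6 to 125.9 CPM, and its 4 HY pools lay between 105.6 and 107.4.

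MEF2C was higher in DG and HY pools than in most CN pools without passing the threshold. CN pools held 186, 308, 262 and 263 CPM in the order F1, F2, M1 and M2, DG pools held 268, 328, 420 and 395, and HY pools held 364, 436, 351 and 362. All 4 HY pools lay above all 4 CN pools, while DG and CN overlapped. The endothelial marker sums separated HY from CN and overlapped between DG and CN in the same way, and their part in the MEF2C and MYOD1 differences was not tested. The log2 fold change was 0.47 (SE 0.168, FDR = 0.202) for DG and 0.57 (SE 0.168, FDR = 0.0839, exact permutation p = 0.0286) for HY over CN. The HY difference came under the threshold with the likelihood-ratio test (FDR = 0.0295) and with DESeq2 (FDR = 0.031). It also did so with skeletal muscle markers as a covariate (FDR = 0.0434) and without CN pool F2 (FDR = 0.0393). With each of the 8 CN and HY pools left out in turn, it was called in 1 of 8 fits. Among these fits the FDR rose to 0.238 and the log2 fold change fell to 0.44.

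MSTN had a higher mean in DG and HY than in CN and was not called. Its counts were 81, 433, 226 and 171 in CN, 423, 353, 705 and 536 in DG, and 653, 474, 491 and 360 in HY. In CPM, CN pool F1 was at 4.73, the other CN pools ran from 11.6 to 22.2, and DG and HY pools ran from 15.96 to 34.1. The diets overlapped, and the log2 fold change was 0.66 (SE 0.362, FDR = 0.384) for DG and 0.79 (SE 0.363, FDR = 0.237) for HY over CN. PAX3 was nearly absent from muscle, with 3 counts over all 12 pools, 2 in DG pool F1 and 1 in HY pool M2, and was removed by the filter on low counts.

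**Figure D2:**
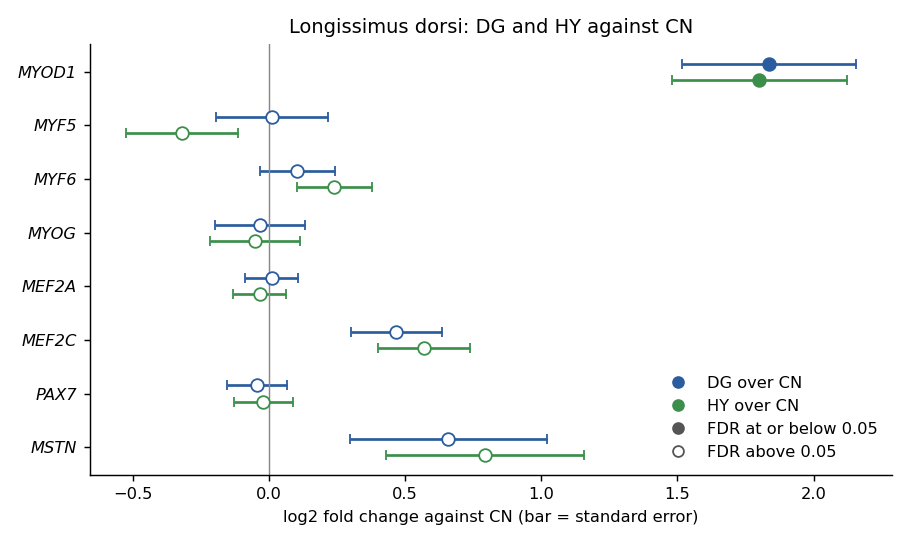
Log2 fold change of DG (blue) and HY (green) over CN for 8 members in longissimus dorsi, with the standard error as a bar. Filled points passed an FDR of 0.05: MYOD1 alone did so, at 1.84 and 1.80, and MEF2C and MSTN lay between 0.47 and 0.79 with open points.

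Between DG and HY no member was called in muscle (edgeR, 0 of 8 with an unadjusted p below 0.05, 0 by DESeq2), where 0% of 18565 features were called. MYOD1 differed by -0.03 on the log2 scale (SE 0.288) between these diets. Between female and male pools, with diet in the model, no member was called either (0 by DESeq2), against 0% of all features. The exception at an unadjusted p was MYF5, higher in male pools by 0.34 on the log2 scale (SE 0.146, unadjusted p = 0.0346, FDR = 0.935, edgeR). Of all 18565 features 704 had an unadjusted p below 0.05 between the sexes.

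The wider pathway was followed in 8 lists of genes that act with or around the members, of which 78 genes were tested in muscle. In CN vs. DG, 1 of the 78 was called higher in DG and 0 lower, where 0.975% of all features were called, with a median log2 fold change of 0.115 against -0.002 over all features. In CN vs. HY, 4 of the 78 were called higher in HY and 0 lower, where 2.68% of all features were called, with a median of 0.089 against -0.018 over all features. DESeq2 called 7 of the 78 in each of these comparisons, where it called 687 (DG) and 1315 (HY) of 28823 features. Between DG and HY 0 were called in muscle (edgeR, 1 with an unadjusted p below 0.05, 0 by DESeq2). In subcutaneous tissue edgeR called 0 of 75 for DG over CN, HY over CN and HY over DG, and 0% of all features. At an unadjusted p below 0.05 there were 11, 3 and 15 of the 75, against 2701, 782 and 3264 of 18005 features. DESeq2 called 2, 0 and 4 of the 75, against 251, 0 and 811 of 27800 features. In perirenal tissue, where 0.115%, 0% and 0% of all features were called, 0 of 62 were called by edgeR in the same order. At an unadjusted p below 0.05 there were 10, 3 and 10 of the 62, against 1804, 421 and 1799 of 18243 features. DESeq2 called 2, 0 and 0 of the 62, against 234, 3 and 96 of 28778 features.

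The gene called in both comparisons was TMEM8C, now named MYMK, which encodes myomaker, the membrane protein that fuses myoblasts. It was higher by 1.502 on the log2 scale in DG (SE 0.254, FDR = 0.0156) and by 1.63 in HY (SE 0.255, FDR = 0.0106), and 13 genes of its list of fusion and early differentiation genes were tested. For DG the call was lost without CN pool M1, CN pool M2 or DG pool M1 (FDR up to 0.0671) and with only the 8 pools of the 2 diets (FDR = 0.0665), and for HY without HY pool F1 (FDR = 0.0518). HDAC4, a class II deacetylase that binds and represses MEF2 proteins, was higher by 1.49 in HY (SE 0.368, FDR = 0.0489). For DG over CN, HDAC4 was at 1.61 (SE 0.367, FDR = 0.0551). In each comparison all 6 genes of the list of MEF2 paralogs and class II deacetylases had a log2 fold change above 0. Over all features the share above 0 was 49.7% for DG and 47.9% for HY. Some of the 6 changes were small, such as HDAC9 at 0.03 for DG (SE 0.138). The 6 genes were measured in the same pools, and the list was not tested as a set.

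In the myostatin pathway, LTBP3, a binding protein of latent TGF-beta family ligands, was higher by 1.28 in HY (SE 0.303, FDR = 0.042), 1 of 6 extracellular inhibitors tested. The calls of HDAC4 and LTBP3 in HY were fragile: with each of the 8 CN and HY pools left out in turn, HDAC4 was called in 2 of 8 fits (FDR up to 0.169) and LTBP3 in 1 of 8 (FDR up to 0.145), and with the replicate block neither passed (FDR = 0.0688 and 0.0585). HDAC4 was also lost after thinning to equal depth (FDR = 0.0663). Follistatin (FST), a myostatin antagonist named here after its values had been seen, stood at -0.26 for DG (SE 0.157, FDR = 0.429) and -0.23 for HY (SE 0.157, FDR = 0.433). None of the 8 ligands and processing enzymes, 11 receptors and SMADs, 14 satellite cell and Notch genes and 8 partners and inhibitors of the regulatory factors was called in either comparison.

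The 3 named genes with the profile closest to MYOD1, MYOG and MSTN were taken over the 12 muscle pools, by the root mean square difference of log2 CPM after centring each gene on its mean. For MYOD1 these were EMC10 (0.242), FAM171A2 (0.257) and RHOB (0.295), where the median over the 10911 features compared was 0.778. For MYOG the closest was the joint locus of HIPK1 and OLFML3 (0.0617), followed by CHST14 (0.0843) and ADH5 (0.0946), against a median of 0.311. For MSTN they were TUBB (0.155), PEG10 (0.205) and ORMDL3 (0.246), against a median of 0.71. The 3 smallest of 10911 differences lie below the median by definition, so the median does not measure how close these genes are. The root mean square of the gene's own centred log2 CPM was 0.757 for MYOD1, 0.225 for MYOG and 0.677 for MSTN.

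In subcutaneous tissue the counts of most members were high where skeletal muscle markers were high. MYOG held 716, 2176, 49 and 141 counts in the CN pools F1, F2, M1 and M2, 3532, 2296, 20 and 2775 in the DG pools, and 26, 2539, 43 and 1275 in the HY pools. The 4 pools with 20 to 49 MYOG counts were the 4 with the lowest skeletal muscle marker sums, 835 to 3900 CPM. The 5 pools with at least 2176 MYOG counts had marker sums of 61310 to 139300 CPM. A larger share of muscle cells and more muscle RNA per cell cannot be told apart in such samples.

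**Figure D3:**
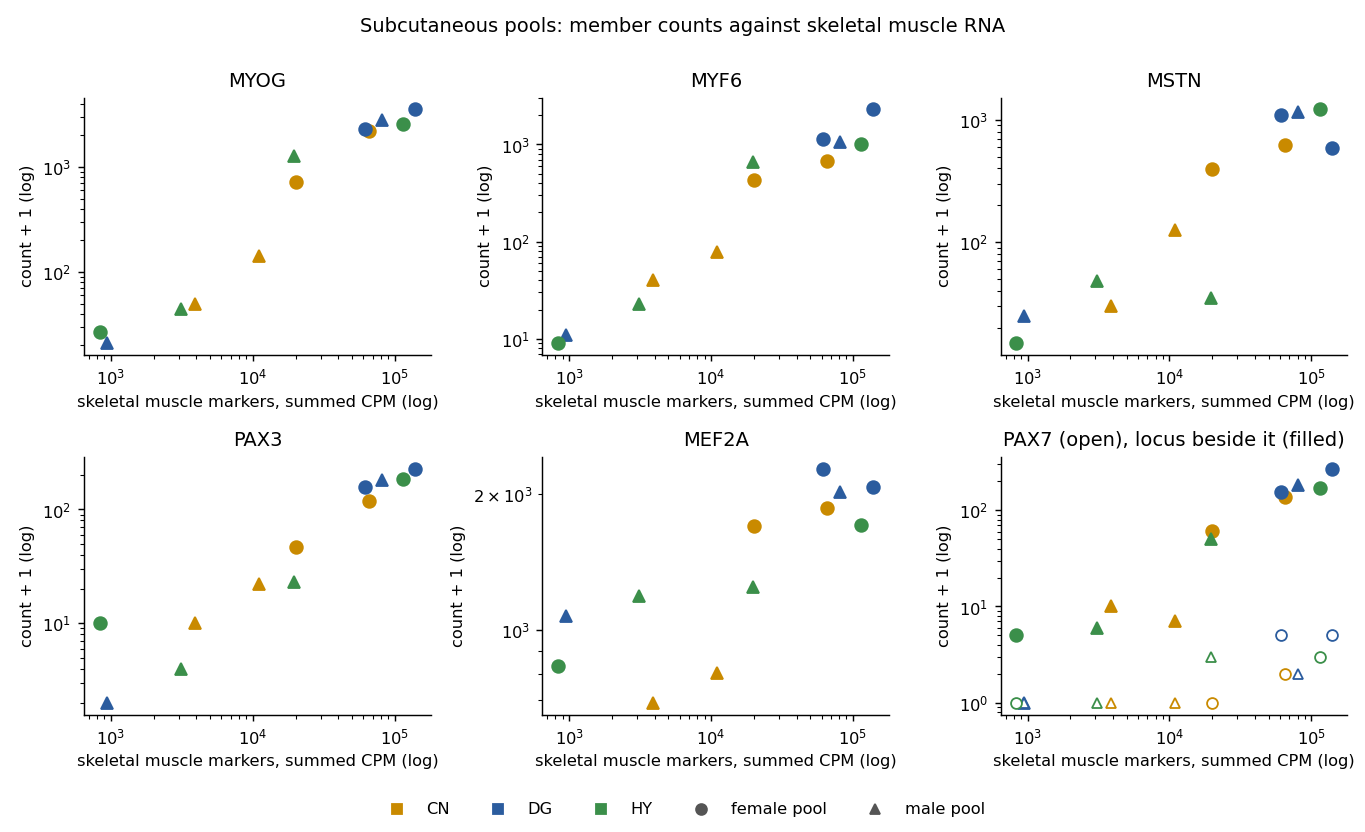
Counts plus 1 of 6 members in each of the 12 subcutaneous pools against the summed CPM of 15 skeletal muscle marker genes, both on log axes, coloured by diet. MYOG, MYF6, MSTN, PAX3 and the unnamed locus beside PAX7 are mostly higher at higher marker sums, which run from 835 to 139300 CPM. MSTN has only 34 counts in HY pool M2, at a marker sum of 19610 CPM. The named PAX7 locus (open symbols) stays at 0 to 4 counts. MEF2A varies from 689 to 2273 counts, or 80.3 to 150 CPM. Counts are not scaled by library total, which runs from 6705766 to 20272024.

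No member was called between diets in subcutaneous tissue (edgeR), where 7 members were tested. The features called were 0% of 18005 in each of the 3 diet comparisons, and 0% between the sexes. At an unadjusted p below 0.05 there were 0 members for DG over CN, 0 for HY over CN, 2 for HY over DG and 0 for sex. Of all 18005 features 2701, 782, 3264 and 2665 had such a p in the same order. DESeq2 called 0 members in each. The spread within a diet was large: for DG over CN, MYOG stood at a log2 fold change of 1.52 (SE 1.44, FDR = 0.588), MSTN at 1.19 (SE 1.3, FDR = 0.637) and PAX3 at 1.39 (SE 1.17, FDR = 0.541). With the muscle marker level as a covariate these became 0.06, 0.06 and 0.10.

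The 2 members with an unadjusted p below 0.05 in DG vs. HY were MEF2A and MEF2C. MEF2C held 1114, 1026, 184 and 968 CPM in the DG pools and 168, 559, 254 and 287 in the HY pools. DG pool M1, the DG pool with the lowest muscle marker sum, lay among the HY pools, and the log2 fold change of HY over DG was -1.38 (SE 0.513, FDR = 0.196). With the muscle marker covariate it was -0.72 (FDR = 0.118). MEF2A was at 102 to 150 CPM in DG and 80.3 to 112.5 in HY, a log2 fold change of -0.47 (SE 0.154, FDR = 0.16).

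MYOD1 was a trace in subcutaneous tissue, with 25 counts in all: 0 in each of the 4 CN pools, 8, 1, 0 and 7 in DG and 0, 3, 0 and 6 in HY. The diets overlapped at 0, and the counts were too low for the fit within this tissue. Over the 12 pools MYOD1 was 17.8 times as frequent per total count in muscle as in subcutaneous tissue (95% exact binomial interval 11.9 to 27.7). This and the other intervals of such ratios cover counting error only and not the spread between pools. In DG pool F1, with the highest marker sum, there were 8 MYOD1 counts beside 3532 MYOG counts.

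To compare the makeup of the members between these tissues, their counts were set against the MYOG counts of the same pool. MYF6 was at 20.5 to 33.9 counts per 100 MYOG counts in muscle and 30.8 to 79.6 in subcutaneous pools, higher in 11 of 12 pools. MSTN was at 1.9 to 12.6 per 100 in muscle and 2.67 to 120 in subcutaneous pools, again higher in 11 of 12. HY pool M2 was the lower pool, with 34 MSTN beside 1275 MYOG counts. The highest subcutaneous ratios rest on few counts. They were 39 MYF6 beside 49 MYOG counts in CN pool M1 and 24 MSTN beside 20 MYOG counts in DG pool M1. MYF5, at 3.87 to 7.17 per 100 in muscle and 0 to 13.7 in subcutaneous pools, was higher in 9 of 12. This ratio was chosen after the values had been seen, it is given with no test, and MSTN can also be made outside muscle fibres.

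PAX3 was counted in every subcutaneous pool and was near 0 in longissimus dorsi. Its counts were 46, 117, 9 and 21 in the CN pools, 226, 155, 1 and 180 in the DG pools and 9, 184, 3 and 22 in the HY pools, 973 in all against 3 in muscle and 16 in perirenal tissue. The 5 pools with more than 100 were the 5 with the highest muscle marker sums. Per total count PAX3 was 493 times as frequent in subcutaneous tissue as in muscle (95% exact interval 168 to 2400) and 50 times as frequent as in perirenal tissue (30.6 to 87.9). The PAX3 locus spans 102948 bases in the subcutaneous files and 101681 in the muscle and perirenal files. Its counts therefore do not cover quite the same stretch, and the part of this in the ratios was not tested. Per 100 MYOG counts PAX3 ran from 1.73 to 34.6 in subcutaneous pools and from 0 to 0.0465 in muscle. The 34.6 was HY pool F1, with 9 PAX3 beside 26 MYOG counts.

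PAX3 is also a factor of melanocyte and Schwann cell precursors, and the 7 markers of those cells summed to 81.3 to 5876 CPM in subcutaneous pools. The highest sums were 5876 in HY pool F2, 2592 in CN pool M1 and 1890 in CN pool F2, where PAX3 had 184, 9 and 117 counts. DG pools F1 and M2, with 226 and 180 PAX3 counts, had sums of 134 and 472 CPM. The part of either cell type in the PAX3 counts was not tested.

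PAX7 depended on which locus is counted. The locus named PAX7 in the subcutaneous files, chr2:246755806-246864318, held 14 counts over 12 pools, and with these the gene would be 382 times (95% exact interval 228 to 699) as frequent in muscle. Directly beside it, 140 bases away, lies an unnamed locus at chr2:246751999-246755665 that falls inside the region of PAX7 in the muscle files, chr2:246751985-246864318. This unnamed locus held 60, 136, 9 and 6 counts in the CN pools, 267, 154, 0 and 181 in DG, and 4, 169, 5 and 49 in HY, 1040 in all. The 5 pools with 136 or more counts were those with at least 2176 MYOG counts.

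With the unnamed locus added to PAX7, the difference between muscle and subcutaneous tissue shrank from -8.99 (SE 0.238) to -2.84 (SE 0.486, FDR = 2.82e-05) on the log2 scale, an alternative chosen after the data had been seen. Per 100 MYOG counts PAX7 then stood at a median of 6.81 in subcutaneous pools against 12.5 in muscle, where the named locus alone gave 0.018. No locus lay at that place in the perirenal files, and PAX7 there had 0 counts. The other unnamed loci inside a member's region belonged to MEF2C and held 25 to 623 counts each, under 1 in 20 of MEF2C counts in each tissue.

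**Figure D4:**
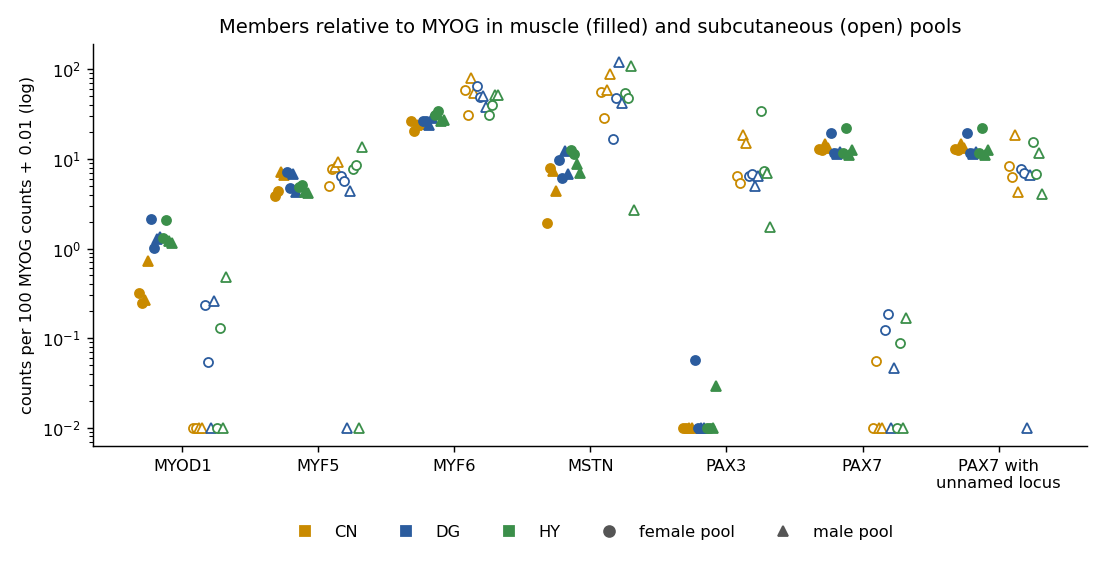
Counts per 100 MYOG counts of the same pool (plus 0.01, log axis) for 6 members, and for PAX7 with the unnamed locus, in muscle (filled) and subcutaneous (open) pools coloured by diet. PAX3 is at 0 to 0.0465 in muscle and 1.73 to 34.6 in subcutaneous pools, and PAX7 moves from near 0 to a median of 6.81 in subcutaneous pools once the unnamed locus is added.

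Perirenal tissue held MEF2 transcripts and almost no other member. MYOD1 and PAX7 had 0 counts in all 12 pools, which allows up to 3 counts or 0.0227 CPM over the tissue, so muscle was at least 122-fold higher for MYOD1, whose locus is the same in both tissues. No fold is given for PAX7, since its perirenal locus (chr2:246755806-246864318) lacks the stretch that held most counts of the region in subcutaneous tissue. MYF5 had 4 counts, MYF6 15, MYOG 6, MSTN 7 and PAX3 16 over the 12 pools, none above 5 counts in any pool. MYOG was 5490 times as frequent in muscle as in perirenal tissue (95% exact interval 2520 to 15000) and MSTN 379 times (184 to 943), with loci that were shorter in the perirenal files (1938 against 3051 bases for MYOG and 4992 against 8287 for MSTN).

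MEF2A and MEF2C were the only members tested between diets in perirenal tissue, with 11423 and 20068 counts over the 12 pools. The MEF2A pools of CN lay between 68.6 and 102.6 CPM, those of DG between 63.1 and 80.7 and those of HY between 81.7 and 115.3. The HY pools lay above all DG pools, with a log2 fold change of 0.32 (SE 0.152, FDR = 0.517, edgeR, and exact permutation p = 0.0286). MEF2C was at 101 to 165 CPM in DG and 136 to 191 in HY, a log2 fold change of 0.26 (SE 0.191, FDR = 0.669). Neither was called in any diet comparison (edgeR, 0 with an unadjusted p below 0.05, 0 by DESeq2), where 0.115% of 18243 features were called in CN vs. DG, 0% in CN vs. HY and 0% in DG vs. HY. Between the sexes 0.0164% of features were called and neither member was.

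The tissues were compared in 1 fit of all 36 libraries over gene names found in all 3 tissues, with diets weighted equally and CPM rescaled over those names. Of the 9 members 7 were called between muscle and subcutaneous tissue, where 72.2% of 13285 names were called, 8 between muscle and perirenal tissue (79.8%) and 8 between subcutaneous and perirenal tissue (66.8%), so the share of members called is to be read against these high shares. The members not called by edgeR were MEF2C and MSTN in the first, PAX3 in the second and MYOD1 in the third of these comparisons. In the same order DESeq2 called 5, 9 and 9 members, and the share of all names that it called is not given here. MYOD1, with 25 counts in subcutaneous and 0 in perirenal tissue, was thus called between the fat depots by DESeq2 (FDR = 0.00136). MYOG averaged 337 ± 48.1 CPM (SD, n = 12) in muscle and 100 ± 96.1 in subcutaneous tissue, lower by 1.89 on the log2 scale (SE 0.542, FDR = 0.00309). MYF5 and MYF6 were lower in subcutaneous tissue by 1.33 (SE 0.509, FDR = 0.0219) and 1.09 (SE 0.467, FDR = 0.0384), and both calls were lost with DESeq2 (FDR = 0.0842 and 0.079). The MYF6 call was also lost in 8 of the fits that left out 1 library (muscle CN F1, DG F2 and DG M2, subcutaneous CN M1, CN M2, DG F2, DG M2 and HY M1), with FDR up to 0.064. With the pool as a block the differences were larger, at -2.81 for MYOG (FDR = 0.00154), -1.91 for MYF5 (FDR = 0.0133) and -1.78 for MYF6 (FDR = 0.00956). The MYF5 locus spans 14463 bases in the muscle files and 4136 in the subcutaneous files, so its counts do not cover the same stretch.

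MSTN and MEF2C were not called between muscle and subcutaneous tissue. MSTN averaged 26.4 ± 10.6 CPM in muscle and 35.0 ± 36.0 in subcutaneous tissue, a log2 difference of 0.35 (SE 0.472, FDR = 0.512), and 3 subcutaneous pools, at 83.4, 89.8 and 94.1 CPM, exceeded the highest muscle pool at 45.5. The difference turned to -0.69 (FDR = 0.0693) without subcutaneous HY pool F2 and to -0.44 (FDR = 0.467) with the pool as a block. PAX3, with 3 counts in muscle and 16 in perirenal tissue, was called between these tissues with the block (FDR = 0.0267) and with DESeq2 (FDR = 0.0375) but not as reported (FDR = 0.202). MEF2C averaged 441 ± 97.9 CPM in muscle, 606 ± 398 in subcutaneous and 154 ± 28.7 in perirenal tissue. From muscle to subcutaneous tissue it differed by 0.36 (SE 0.197, FDR = 0.0999), a difference called without subcutaneous DG pool M1 (0.47, FDR = 0.00669) and without HY pool F1 (0.43, FDR = 0.0489). MEF2A averaged 146 ± 9.26 CPM in muscle, 130 ± 23.0 in subcutaneous and 87.8 ± 14.2 in perirenal tissue. It was lower than in muscle by a log2 difference of -0.18 (SE 0.0731, FDR = 0.0263) in subcutaneous and -0.74 (SE 0.0735, FDR = 1.05e-10) in perirenal tissue. The first of these calls was lost without muscle CN pool M1, DG pool F2 or DG pool M1 and without subcutaneous DG pool M1 or HY pool F1 (FDR up to 0.0615), and without the filter on low counts (FDR = 0.0501).

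**Figure D5:**
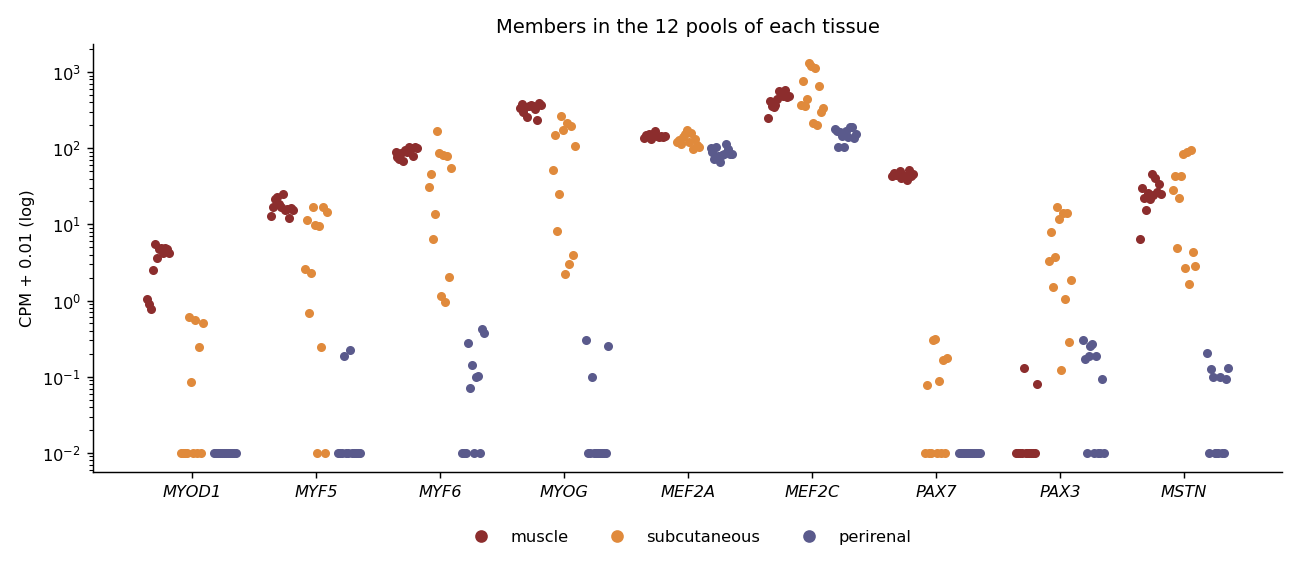
CPM plus 0.01 (log axis) of the 9 members in the 12 pools of muscle, subcutaneous and perirenal tissue, from the fit of all 36 libraries. MEF2A and MEF2C are present in all 3 tissues, and all other members are near 0 in perirenal pools. PAX3 is highest in subcutaneous tissue. Between subcutaneous pools MYOG spreads from 2.25 to 262 CPM, while MYOD1 (at most 0.593) and PAX7 (at most 0.306) stay near 0. PAX7 is shown for its named locus only.

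Whether a diet response differed between muscle and fat was tested in the same fit. No member was called for DG minus CN against subcutaneous tissue (0.0226% of 13285 names called), for HY minus CN against subcutaneous tissue (0%), or for DG minus CN (0%) and HY minus CN (0%) against perirenal tissue (edgeR). At an unadjusted p below 0.05 there were 1, 0, 0 and 0 members, against 1171, 937, 424 and 921 of all 13285 names, and DESeq2 called 0 members in each. The 1 member was PAX7 (unadjusted p = 0.0135, FDR = 0.487), with 0 to 4 counts per subcutaneous pool. For MYOD1 the adjusted values against subcutaneous tissue were FDR = 0.577 for DG and FDR = 0.849 for HY. With 0 to 8 MYOD1 counts per fat pool, these values do not show that the responses were alike. In perirenal tissue MYOD1 and PAX7 had 0 counts, and MYF5, MYF6, MYOG, MSTN and PAX3 had 4 to 16 each over all pools. For these members the perirenal tests had too few counts to decide whether the responses differed.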

How the data were processed

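mRNA libraries of pooled fetal RNA were sequenced as single-end reads. Per the labels and the study's methods, the authors aligned reads to Oar_v3.1 with TopHat2 2.0.4, assembled loci with Cufflinks 2.1.1, and deposited unnormalized counts per locus. HTSeq is among the tools named. Strand and the handling of multi-mapped reads in counting are not given in the sources used here. Locus numbers and extents differ between the files of different tissues, and genes were therefore matched by name.

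Groups came from the sample labels. The members and gene lists were chosen with earlier results of these data known. Counts were filtered (filterByExpr by diet, minimum count 10, minimum total 15), scaled by TMM and tested with edgeR 4.0.16 (quasi-likelihood, robust, R 4.3.3), with all 12 pools of a tissue in 1 fit. DESeq2 1.42.0 was an alternative. Standard errors are the absolute log2 fold change over the square root of F. Permutation tests used log2(CPM + 0.5). Named genes were all members, up to 4 called genes per list and comparison, and the 3 nearest profiles of MYOD1, MYOG and MSTN with a mean of at least 1 CPM. Marker sums used genes with a locus of their own in every tissue, 15 of 20 for skeletal muscle. Alternatives for the pathway genes and the addition of unnamed loci were chosen after seeing the data.

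On simulated muscle counts for CN vs. DG (18606 features), 71% of 100 genes changed by 1 on the log2 scale and 100% of 100 changed by 2 were recovered, and 4.47% of calls were false. For the response difference between muscle and perirenal tissue (13010 names) 31% and 100% were recovered. These rates describe the simulated counts only. Whether they hold at the spread of the real pools was not tested. They are not rates for members with few counts, such as MYOG with 6 counts over all perirenal pools. Pools of a group differed by more than sampling noise in all 54 pairs (chi-square per degree of freedom 9.84 or more). No sequence is shown, since no sequence of these genes was used here. Of the pathway genes called, 1 is not reported here by name. The study describes the fetuses of each pool once for all tissues, so pools of the same diet, sex and number were taken to hold the same fetuses, and the tissue comparison was also fitted with the pool as a block.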

Additional observations from a re-analysis of the deposited data

Results flagged for a closer look

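Within groups of 4 pools that held at least 10 counts of a member, 52 groups were examined for a pool whose gap to its neighbour, over the group's range, exceeded Dixon's 95% critical value, and 8 pools did so. Chance alone flags about 1 in 20 groups.

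In muscle these were CN pool M2 for MYOD1 (1.90 CPM, 28 counts, others at most 0.759), HY pool F2 for MYF6 (59.5 CPM, others at least 74.8) and for MEF2C (436 CPM, others at most 364), and DG pool M1 for MSTN (34.1 CPM, others at most 18.3). Without CN pool M2, which lay nearest to the other diets, the MYOD1 change was 2.36 for DG (FDR = 0.00612) and 2.33 for HY (FDR = 0.00718) on the log2 scale.

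In subcutaneous tissue HY pool F2 stood high for PAX3 (12.1 CPM, others at most 1.55) and MSTN (79.8 CPM, others at most 3.64), and its skeletal muscle marker sum of 114700 CPM was the highest of the HY pools. DG pool M1 stood low for MEF2C (184 CPM, others at least 968), and its marker sum of 945 CPM was the lowest of the DG pools. In perirenal tissue DG pool F2 was low for MEF2A (63.1 CPM, others at least 78.4).

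Signal also lay in unnamed loci that the comparisons by name leave out. The unnamed locus beside PAX7 in the subcutaneous files held 1040 counts where the named one held 14. On chromosome 15 an unnamed subcutaneous locus 5860 bases from MYOD1 (chr15:34360516-34364666) held 1912 counts over the 12 pools, with 459, 420, 355 and 307 in DG F1, DG M2, CN F2 and HY F2 and 0 in DG M1, and a second one 4266 bases away held 73. The muscle and perirenal files had no locus at either place, and neither was added to MYOD1, since both lie outside its region in every tissue.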

How the results depend on the processing

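Of 131 recomputed counts of called members, other than those leaving out a library, 127 stayed within 1.5 times the reported count, and 199 of 200 recomputed single-member fold changes kept their sign. Most reported counts were 0 and stayed 0. The counts that moved were 1 of 10 in muscle CN vs. DG and 3 of 10 in CN vs. HY, the only diet comparisons with a called member. The fall from 7 to 5 between muscle and subcutaneous tissue with DESeq2 was within 1.5 times. In muscle CN vs. DG the count fell from 1 to 0 with only the 8 pools of the 2 diets, where 9 instead of 181 features were called. In CN vs. HY it rose from 1 to 2, with MEF2C added to MYOD1, with the skeletal muscle marker covariate, with DESeq2 and with the likelihood-ratio test. Leaving out 1 pool at a time gave 0 to 1 called member in CN vs. DG and 0 to 2 in CN vs. HY, while the features called ran from 21 to 335 and from 5 to 1272. Between tissues it gave 5 to 7 in muscle vs. subcutaneous tissue and 7 to 8 in subcutaneous vs. perirenal tissue, where PAX7 was lost without subcutaneous CN pool F2. Calls among all features rose with the likelihood-ratio test to 616 and 1153, with DESeq2 to 687 and 1315, and with the marker covariate to 460 and 1643 in CN vs. DG and CN vs. HY. With these 3 settings the share higher in HY was 81.6%, 79.2% and 69.9% of calls, against 91% as reported. In subcutaneous DG vs. HY, where 0 features were called as reported, DESeq2 called 811, the likelihood-ratio test 232 and the covariate fit 83, and in CN vs. DG these called 251, 29 and 127. In perirenal CN vs. DG, 21 features became 234 with DESeq2, 193 with the likelihood-ratio test, 5 with RLE scaling, 5 after thinning, 6 with only the 8 pools and 0 with the replicate block. Between DG and HY the perirenal count went from 0 to 96 with DESeq2 and 41 with the likelihood-ratio test.

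With the replicate block, MYOD1 was at 1.89 for DG (FDR = 0.0351) and 1.88 for HY (FDR = 0.0285), and 127 and 251 features were called. In subcutaneous DG vs. HY the block gave 265 called features and no member. The replicate numbers were not taken to pair the pools within a tissue, since deviations of same-numbered pools correlated between -0.33 and 0.183 in muscle, -0.417 and 0.64 in subcutaneous and -0.053 and 0.253 in perirenal tissue. In subcutaneous tissue their mean was 0.191 against -0.068 for other pairs. There the skeletal muscle markers in CN, DG and HY summed to 3900, 945 and 3107 CPM in the M1 pools. They summed to 65460, 61310 and 114700 in F2, and to 20040, 139300 and 835 in F1 and 11020, 80860 and 19610 in M2. The part of muscle RNA in these correlations was not tested. By the study's description, pools of different diets share no dam. In muscle, subcutaneous and perirenal tissue 3, 6 and 4 of 12 pools were closest to their own number. The replicate block could not be fitted beside sex, since each number belongs to 1 sex, and a pairing of female and male pools through the dams that some of them share was not run. Between muscle and subcutaneous tissue the MSTN difference reversed to -0.44 with the replicate block, and leaving out 1 library gave -0.69 to 0.48. With that block, and with DESeq2, 9 members instead of 8 were called between muscle and perirenal tissue. The cause of these shifts was not tested. MYOD1 in both fat depots and PAX3 in muscle were removed by the filter on low counts, so diets were not tested for them within those tissues in the reported fits.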
